A study of Mus musculus with 15 samples.

Results

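The mature NK1.1+ stage of thymic invariant natural killer T (iNKT) cells was compared with the pooled earlier stages, gene by gene, on 6 of the 15 single-colour Illumina mouse bead arrays of the series. The comparison takes all 3 wild-type (WT) iNKT arrays of stage 3 and all 3 WT iNKT arrays of stage 1-2, chosen by their sample titles, over the 6838 genes detected on all 3 arrays of at least 1 group of the series. Stage 3 cells had been sorted as NK1.1+ and CD44 high, and stage 1-2 cells as NK1.1- with CD44 either high or low, so the earlier group pools 2 stages and is a mixture. Both carried the CD1d tetramer, with low HSA (CD24) and intermediate TCRβ. Both came from thymi of mice 4 weeks old with the genotype Dicer lox/lox CD4-Cre -/-, that is, with floxed Dicer alleles and no Cre. The other arrays (KO iNKT cells, KO T cells and WT T cells, 3 arrays each) served to estimate the spread between replicates and as points of comparison for levels. The KO mice had lost Dicer through a Cre driven by CD4. Whether replicate arrays stem from separate animals or pools is not stated. The p-values below therefore measure the spread between these arrays, which may be in part technical.

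Invariant NKT cells are T cells with a semi-invariant receptor that sees lipids on CD1d. They are selected by CD4+CD8+ thymocytes, divide as small NK1.1- precursors that make much interleukin 4, and then, at stage 3, acquire receptors shared with natural killer (NK) cells together with the T-bet-driven, interferon-gamma producing programme known as NKT1. The NK1.1- fraction of a thymus also holds the finished NKT2 (interleukin 4) and NKT17 (interleukin 17) subsets, so a difference between the fractions joins maturation with a difference in subset content, and the 2 cannot be told apart here.

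Both arms held 1 dim array: the highest probe signal was 14923 on stage 3 replicate 2 and 15373 on stage 1-2 replicate 1, against 33135 to 43881 on the other 4 arrays. These arrays also detected the smallest shares of their probes, 29.2% on the stage 3 array and 30.3% on the stage 1-2 array, against 34.7% to 40.8% on the others. The first principal component of the 6 arrays held 56.8% of their variance and separated the stages, and the second, with 16.5%, separated the dim arrays from the rest. All values below are log2 intensities after background correction and quantile normalization, on which 1 unit is a doubling. Of the genes of the gate, Klrb1c, which encodes NK1.1, had 7.99, 8.74 and 8.65 in stage 3, against 4.51, 5.0 and 4.7 in stage 1-2. Cd44 had 8.05, 7.64 and 7.95 in stage 3, against 6.81, 6.84 and 7.19 in stage 1-2 on its brightest probe, but its other 2 kept probes changed by 0.01 and -0.29 with no call. The T cell marker Cd3e was detected on all 6 arrays with 11.7, 11.96 and 11.39 in stage 3, against 11.01, 11.01 and 10.18 in stage 1-2. The offset used in that step shrinks the differences of dim genes, and levels of different genes are not comparable because each probe has its own response.

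Markers of granulocytes, monocytes and macrophages, plasmacytoid dendritic cells, and B cells with MHC class II were far stronger on the stage 1-2 arrays. This did not hold for the NK cell, erythroid and stromal lists, which are given below. The mean log2 intensity of the 14 granulocyte genes tested was 5.91, 5.15 and 5.0 in stage 3 cells, against 8.97, 8.38 and 8.04 in stage 1-2 cells and 4.56 on average in WT T cells. That of the 8 B cell and MHC class II genes was 6.45, 5.69 and 6.01 in stage 3 cells, against 8.49, 8.11 and 9.75 in stage 1-2 cells, and that of the 10 plasmacytoid dendritic cell genes was 5.98, 5.16 and 5.57 in stage 3 cells, against 7.28, 7.36 and 8.17 in stage 1-2 cells. For the 9 monocyte and macrophage genes the means were 5.80, 5.38 and 5.78 in stage 3 cells and 7.44, 6.80 and 7.12 in stage 1-2 cells. In these bulk samples a smaller number of such cells and less of their RNA per cell cannot be told apart. The part of these cells in any fall reported below was not tested. Falls are also counted among the genes that were detected on all 6 T cell arrays. That count does not remove the RNA of other cells, because a gene detected in T cells may be expressed by other cells as well.

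Of the 6838 genes, 623 were higher and 754 were lower in stage 3 cells at an adjusted p under 0.05 (limma, Benjamini-Hochberg over all genes), which is 9.11% and 11.0% of those tested, or 20.1% in either direction. Each count of list members below is to be read beside these shares. By at least 2-fold, 283 genes rose and 464 fell, and by at least 4-fold 45 rose and 124 fell. The arrays of the 2 groups did not overlap for 598 of the genes that rose and 724 of those that fell. Over all genes, called or not, the stage 3 arrays lay wholly above for 15.3% and wholly below for 17.3%. Most called genes thus have separated arrays, and separation given below for a called gene adds no support to its call. The median change of all genes was -0.0017. Of the genes that fell 140 were detected on no stage 3 array, and of those that rose 24 were detected on no stage 1-2 array. Genes that no T cell array detected made up 15.4% of the falls (116 genes), 4.98% of the rises (31 genes) and 4.45% of all genes tested. Among the 5146 genes detected on all 6 T cell arrays, tested on their own, 505 rose and 529 fell. Without both dim arrays 429 genes rose and 549 fell. Of the 464 further kept probes of called genes, 220 passed with the same sign and none with the opposite sign. Among the genes named below, at least 1 further probe did not pass for Ccnd1, Cdc20, Id2, Ifit3, Il17re, Ltf, Mpo, Pecam1, Pfkm, Tgfbr2 and Tyms. With the arrays aligned on their medians in place of quantiles, 15 rose and 75 fell, with a median change of all genes of -0.22, so that the share of rises among the calls was 16.7% in place of 45.2%.

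**Figure D1:**
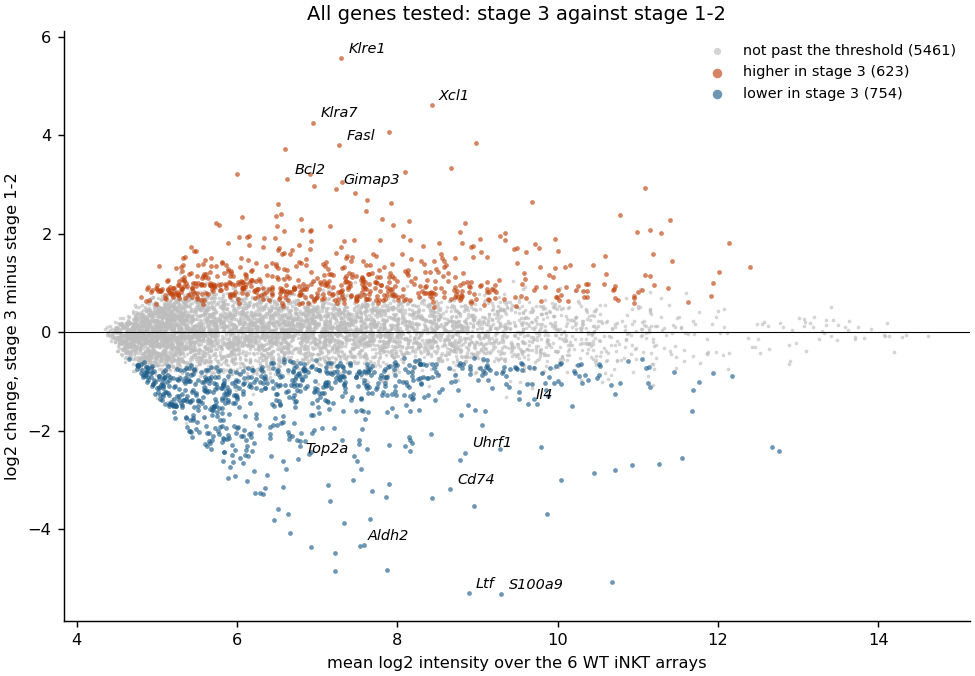
Log2 change (stage 3 minus stage 1-2, vertical axis) of each of the 6838 genes tested against its mean log2 intensity over the 6 WT iNKT arrays (horizontal axis). Coloured points passed the threshold, 623 above and 754 below zero; the lower edge on the left is formed by genes that reach background in stage 3 cells, and Klre1 (5.57) and S100a9 (-5.32) mark the extremes.

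The largest rises were NK receptors, effector molecules and Bcl2, and the largest falls were granulocyte genes together with Aldh2, Igfbp4, Ly6d and Alox5ap. The 12 genes that rose most were Klre1, Xcl1, Klra7, Klra10, Klrd1, Fasl, Klrb1c, Klra1, Ccl5, Ifng, Klrk1 and Bcl2, with log2 changes from 3.11 to 5.57, and of these Klrb1c was part of the gate. The 12 that fell most were S100a9, Ltf, S100a8, Alox5ap, Camp, Lcn2, Ngp, Aldh2, Igfbp4, Chil3, Ly6d and Mpo, with log2 changes from -3.83 to -5.32. Bcl2, Klrd1 and Igfbp4 were among the tightest, with neither group spanning more than about 1 unit, whereas S100a8 spanned 6.45 to 9.99 within the stage 3 arrays.

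**Figure D2:**
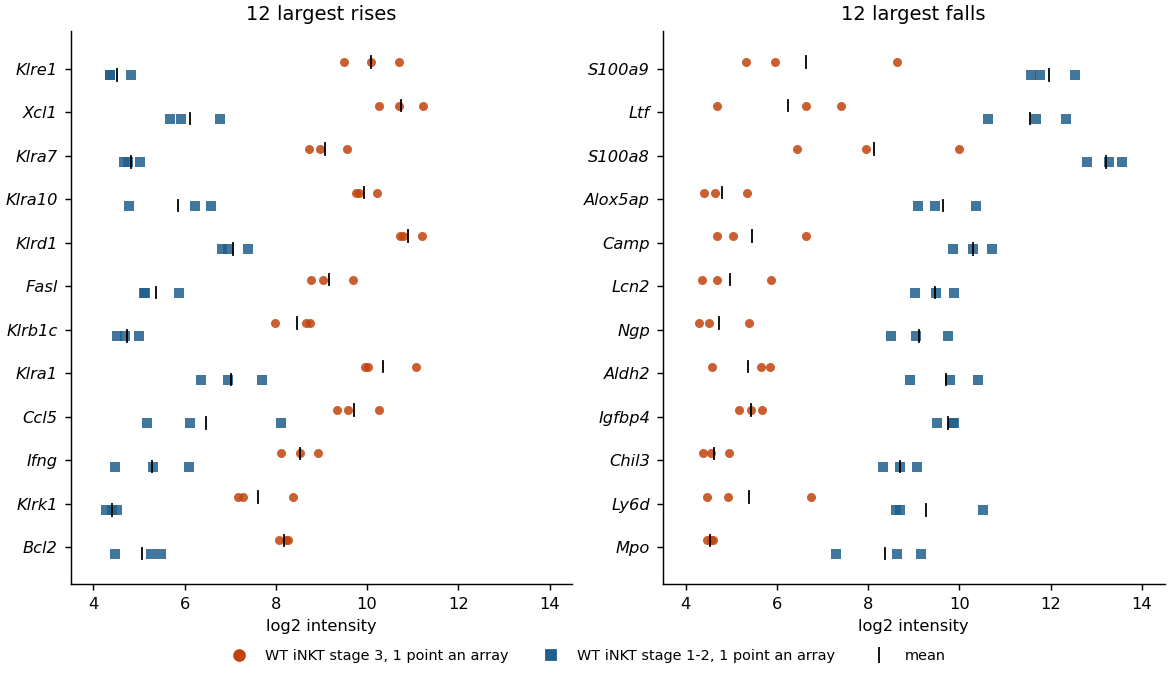
Log2 intensity (horizontal axis) of the 12 genes with the largest rise (left) and the 12 with the largest fall (right) among those past the threshold with separated arrays. Each circle is a stage 3 array, each square a stage 1-2 array and each tick a mean; the stage 3 arrays of S100a8, S100a9 and Ltf are spread over more than 2 units while those of Bcl2 and Mpo lie close together.

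The lectin-like receptors of NK cells are transmembrane proteins that either inhibit cytotoxicity on meeting MHC class I or trigger it on meeting stress ligands. Of 13 such receptors and adaptors tested, 10 rose in stage 3 cells and 1 fell, with a median log2 change of 1.89 against -0.0017 over all genes, beside 9.11% and 11.0% of all genes. Changes are given as log2 differences, stage 3 minus stage 1-2, with the standard error of the fit. With median alignment 6 of the receptors rose, 4 genes of the type 1 programme below and 1 of the cytotoxic genes. Klre1, which pairs with other lectin-like chains to form inhibitory or activating receptors, had 10.09, 9.49 and 10.69 in stage 3, against 4.36, 4.37 and 4.82 in stage 1-2 (log2 change 5.57 ± 0.26, limma adjusted p = 4.38e-10). Klrd1 (CD94), the common partner of the NKG2 chains that read Qa-1, had 10.79, 11.19 and 10.73 in stage 3, against 6.95, 6.82 and 7.39 in stage 1-2 (log2 change 3.85 ± 0.22, limma adjusted p = 3.97e-09). The stage 3 arrays of both genes lay more than 3 units above every stage 1-2 array. Klrk1 (NKG2D), the receptor for stress-induced MHC-like ligands, had 7.18, 7.28 and 8.37 in stage 3, against 4.28, 4.41 and 4.52 in stage 1-2, was detected on no stage 1-2 array and was at least 6.42-fold higher (log2 change 3.21 ± 0.26, limma adjusted p = 3.87e-07). Of the Ly49 genes, whose products bind MHC class I, Klra1 had 9.96, 10.02 and 11.06 in stage 3, against 6.95, 7.7 and 6.36 in stage 1-2 (log2 change 3.34 ± 0.35, limma adjusted p = 4.76e-06). Klra7 had 8.72, 8.96 and 9.57 in stage 3, against 5.02, 4.76 and 4.68 in stage 1-2, was detected on no stage 1-2 array and was at least 17.9-fold higher (log2 change 4.26 ± 0.21, limma adjusted p = 5.50e-10). Klra10 had 9.82, 9.75 and 10.21 in stage 3, against 6.57, 6.23 and 4.78 in stage 1-2 (log2 change 4.07 ± 0.37, limma adjusted p = 1.21e-06). On all 3 probes the stage 3 arrays lay far above. Ly49 genes are close copies of each other, so a probe may read more than 1 of them and the member behind each value is uncertain. Cd160, an immunoglobulin-like receptor of cytotoxic lymphocytes that binds HVEM, had 9.8, 9.83 and 10.3 in stage 3, against 7.85, 8.42 and 8.01 in stage 1-2 (log2 change 1.89 ± 0.23, limma adjusted p = 2.34e-05). Klrb1b, Klrb1f and Klri2 rose as well, and neither Klrb1b nor Klri2 was detected on a stage 1-2 array.

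The adaptors behaved differently from the receptors. Tyrobp (DAP12), which signals for activating NK receptors and is also abundant in myeloid cells, fell (log2 change -2.43 ± 0.43, limma adjusted p = 0.000773) with 6.22, 4.43 and 6.47 in stage 3, against 8.05, 7.3 and 9.07 in stage 1-2. The myeloid markers given above were lower in stage 3 cells too. Within stage 1-2, Tyrobp was highest on replicate 3, as were the means of the plasmacytoid dendritic cell list and the B cell and MHC class II list. The granulocyte and monocyte means were highest on replicate 1. The part of any of these cells in the fall of Tyrobp was not tested. Fcer1g had 10.16, 9.4 and 10.31 in stage 3, against 8.66, 8.09 and 10.01 in stage 1-2 and Hcst (DAP10), the partner of NKG2D, had 10.61, 10.49 and 8.93 in stage 3, against 9.01, 9.23 and 9.15 in stage 1-2; the groups overlapped for both and neither passed (limma adjusted p = 0.0762 and 0.179). Of the 8 genes of the NK cell list that were tested, 4 were higher (Klrb1c of the gate, Klrb1f, Cd7 and Ccl5) and Tyrobp was lower, with a median of 1.28. The mean of the list was 7.94, 7.57 and 8.27 in stage 3 cells, against 6.47, 6.45 and 7.3 in stage 1-2 cells. The part of NK cells in the rises was not tested. Ncr1 was detected on none of the 6 arrays and Eomes on 1 stage 3 array, and neither was tested. No probe was listed for Klrc1, and Klrg1 was detected on 1 stage 1-2 array and no stage 3 array.

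The receptor genes lie next to each other. From Klrb1c to Klra1 on chromosome 6, in the RefSeq order of genes, 19 genes were tested. Of these, 10 were higher in stage 3 cells (Klrb1c of the gate among them), 2 were lower and 7 did not pass. Over all genes 9.11% were higher and 11.0% lower. Both ends of this stretch are genes that rose, and apart from Klrb1c its rises were already named among the receptors above. The count therefore cannot test whether rises gather there. The 2 that were lower were detected on no stage 3 array: Clec7a, at least 2.01-fold lower, and Klra17. The genes that rose, in map order, were Klrb1c (log2 change 3.73), Klrb1b (at least 2.57-fold), Klrb1f (1.52), Klre1 (5.57), Klrd1 (3.85), Klrk1 (at least 6.42-fold), Klri2 (at least 1.72-fold), Klra7 (at least 17.9-fold), Klra10 (4.07) and Klra1 (3.34). Within the same stretch the log2 changes of Clec2i, Clec2e, Clec2d, Cd69, Clec1a, Gabarapl1 and Klrh1 ran from -0.03 (Clec2e) to 0.77 (Clec2d) with no call. Cd69, an activation marker, had 8.6, 8.27 and 8.68 in stage 3, against 8.5, 7.99 and 8.53 in stage 1-2, and these values overlap.

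Of 12 granule and death ligand genes tested, 5 rose and 1 fell (median log2 change 0.45). Fasl, the ligand that kills through the Fas receptor, had 8.78, 9.04 and 9.7 in stage 3, against 5.11, 5.13 and 5.89 in stage 1-2 (log2 change 3.8 ± 0.30, limma adjusted p = 2.17e-07). Nkg7, a granule membrane protein of cytotoxic cells, had 12.52, 12.41 and 12.72 in stage 3, against 9.29, 9.25 and 10.33 in stage 1-2 (log2 change 2.93 ± 0.28, limma adjusted p = 1.92e-06). Ctsw, a cathepsin of NK and CD8+ T cells, had 12.29, 11.85 and 12.75 in stage 3, against 10.41, 10.56 and 9.9 in stage 1-2 (log2 change 2.01 ± 0.25, limma adjusted p = 2.67e-05). For all 3 genes the groups stood well apart. Serpinb6b, an inhibitor of granzyme-type proteases, had 8.73, 8.85 and 8.96 in stage 3, against 6.4, 6.67 and 6.06 in stage 1-2 (log2 change 2.47 ± 0.20, limma adjusted p = 3.87e-07). For Prf1, which encodes the pore-forming perforin, the 2 kept probes disagreed. The brighter had 9.39, 9.15 and 9.1 in stage 3, against 9.34, 9.15 and 8.79 in stage 1-2, with overlapping groups (log2 change 0.12 ± 0.34, limma adjusted p = 0.846), and the other rose by 1.58 (limma adjusted p = 0.000764). Gzma and Gzmb, the main granzymes, were detected on none of the 6 arrays. Lamp1, a lysosomal membrane protein, was the member that fell (log2 change -0.73 ± 0.24, limma adjusted p = 0.0427) with 8.06, 8.7 and 8.58 in stage 3, against 9.28, 9.03 and 9.21 in stage 1-2, a call lost without stage 3 replicate 1 (adjusted p = 0.158), without stage 3 replicate 3 (0.0610), without stage 1-2 replicate 1 (0.102), without stage 1-2 replicate 2 (0.0615) and without stage 1-2 replicate 3 (0.0991). Cst7, an inhibitor of cathepsins, was the fifth that rose (log2 change 0.66 ± 0.21, limma adjusted p = 0.0365), a call lost without stage 3 replicate 1 (adjusted p = 0.111), without stage 3 replicate 2 (0.108), without stage 1-2 replicate 1 (0.126) and without stage 1-2 replicate 3 (0.0599).

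Genes of the interferon-gamma producing programme and of the cytokine receptors that feed it mostly rose: 12 of 18 tested, with 2 that fell and a median log2 change of 1.45. Tbx21 (T-bet), the transcription factor that directs this fate, had 7.42, 7.03 and 7.24 in stage 3, against 5.12, 4.83 and 4.74 in stage 1-2 (log2 change 2.33 ± 0.21, limma adjusted p = 1.21e-06). Il2rb, the chain through which interleukin 15 sustains mature iNKT cells, had 7.79, 7.86 and 7.35 in stage 3, against 4.88, 5.6 and 5.45 in stage 1-2 (log2 change 2.36 ± 0.29, limma adjusted p = 2.34e-05). In stage 1-2 cells Tbx21 was detected on 1 array and Il2rb on 2. Stat4, which relays interleukin 12, had 8.67, 8.98 and 9.26 in stage 3, against 6.89, 5.78 and 7.31 in stage 1-2 (log2 change 2.31 ± 0.32, limma adjusted p = 6.67e-05). Il18rap, the accessory chain of the interleukin 18 receptor, had 7.36, 7.99 and 8.17 in stage 3, against 6.49, 5.45 and 5.38 in stage 1-2 (log2 change 2.07 ± 0.27, limma adjusted p = 4.34e-05). The other chain, Il18r1, had 10.07, 10.41 and 9.46 in stage 3, against 9.65, 9.68 and 9.53 in stage 1-2, and these overlap (log2 change 0.36 ± 0.30, limma adjusted p = 0.426). Il12rb2, which completes the interleukin 12 receptor, was detected on 1 stage 3 array and no stage 1-2 array and was not tested, and Il12rb1 changed by -0.1 with no call.

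Of the secreted products, Ifng had 8.53, 8.1 and 8.92 in stage 3, against 4.47, 6.09 and 5.31 in stage 1-2 (log2 change 3.23 ± 0.39, limma adjusted p = 2.45e-05). Xcl1 (lymphotactin), a chemokine that calls cross-presenting dendritic cells, had 11.23, 10.71 and 10.27 in stage 3, against 5.68, 5.93 and 6.77 in stage 1-2 (log2 change 4.61 ± 0.40, limma adjusted p = 8.26e-07). Ccl5 (RANTES) had 10.26, 9.33 and 9.57 in stage 3, against 5.18, 6.12 and 8.12 in stage 1-2 (log2 change 3.25 ± 0.69, limma adjusted p = 0.00310). Ccl5 varied most within a group, with stage 1-2 replicate 3 almost 3 units above replicate 1. Another pair of chemokines went the opposite way: Ccl4 had 8.6, 8.41 and 8.88 in stage 3, against 10.98, 10.63 and 11.24 in stage 1-2 (log2 change -2.32 ± 0.26, limma adjusted p = 8.90e-06). Ccl3 had 5.74, 4.57 and 6.93 in stage 3, against 7.75, 7.09 and 9.02 in stage 1-2 (log2 change -2.21 ± 0.46, limma adjusted p = 0.00273). Both are also made by myeloid cells, and Ccl3 was detected on no WT T array. Ifngr1, the ligand-binding chain of the interferon-gamma receptor, had 10.84, 10.85 and 11.31 in stage 3, against 8.42, 7.98 and 8.66 in stage 1-2 (log2 change 2.65 ± 0.26, limma adjusted p = 2.07e-06). Cxcr3, a chemokine receptor driven by T-bet, had 8.07, 8.5 and 8.64 in stage 3, against 6.44, 6.82 and 6.31 in stage 1-2 (log2 change 1.88 ± 0.30, limma adjusted p = 0.000309). By contrast, Cxcr6, the receptor that holds iNKT cells in the liver, had 7.06, 7.16 and 7.35 in stage 3, against 7.09, 7.43 and 6.62 in stage 1-2 and did not pass (log2 change 0.14 ± 0.28, limma adjusted p = 0.768). Tnf was higher (log2 change 1.02 ± 0.26, limma adjusted p = 0.0120), a call lost without both dim arrays.

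Of 13 genes of early and NKT2 cells, 5 fell and 2 rose, with a median of -0.59, and of 12 genes of NKT17 cells 6 fell and none rose, with a median of -0.84. Il4 had 8.87, 9.18 and 8.66 in stage 3, against 10.18, 11.06 and 9.84 in stage 1-2 (log2 change -1.46 ± 0.34, limma adjusted p = 0.00653), so the messenger was detected on all stage 3 arrays while lying below every stage 1-2 array. Il17rb, the receptor for interleukin 25 that marks NKT2 precursors, had 6.87, 6.94 and 7.44 in stage 3, against 9.37, 9.47 and 8.81 in stage 1-2 (log2 change -2.14 ± 0.31, limma adjusted p = 0.000123). Plac8, a small protein of early and myeloid cells, had 8.86, 8.56 and 8.19 in stage 3, against 11.3, 11.23 and 12.1 in stage 1-2 (log2 change -3.0 ± 0.26, limma adjusted p = 7.10e-07). Gata3, the type 2 master regulator, had 8.35, 7.72 and 8.08 in stage 3, against 8.14, 8.68 and 7.66 in stage 1-2, Icos had 10.96, 11.06 and 11.12 in stage 3, against 11.14, 11.3 and 11.02 in stage 1-2, and neither separated the stages (limma adjusted p = 0.808 and 0.802). Lef1, a factor of early iNKT cells, had 5.45, 5.41 and 6.05 in stage 3, against 6.77, 6.78 and 5.12 in stage 1-2, with stage 1-2 replicate 3 below all stage 3 arrays (log2 change -0.59 ± 0.40, limma adjusted p = 0.322). Of the 2 rises, Nfil3 and Cd27, 1 was called without stage 3 replicate 3 or without stage 1-2 replicate 3. No probe was listed for Zbtb16, the factor that defines the lineage.

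On the type 17 side, Ccr6, a chemokine receptor of cells that make interleukin 17, had 5.09, 5.82 and 6.11 in stage 3, against 7.34, 7.56 and 8.77 in stage 1-2 (log2 change -2.21 ± 0.34, limma adjusted p = 0.000213). Tmem176b, a membrane protein of such cells and of dendritic cells, had 6.98, 6.62 and 6.71 in stage 3, against 8.45, 7.81 and 8.85 in stage 1-2 (log2 change -1.6 ± 0.33, limma adjusted p = 0.00248). Blk, a kinase of B cells and interleukin 17 producing T cells, had 6.8, 7.58 and 7.25 in stage 3, against 8.54, 8.22 and 8.51 in stage 1-2 (log2 change -1.21 ± 0.25, limma adjusted p = 0.00242). Il17re, a receptor chain for interleukin 17C, had 5.29, 6.04 and 5.95 in stage 3, against 6.52, 6.48 and 7.13 in stage 1-2 (log2 change -0.95 ± 0.23, limma adjusted p = 0.00832). None of these 4 genes overlapped between the stages, as held for most genes called lower. Over all genes the stage 3 arrays lay wholly below for 17.3%. The cytokine Il17a changed by -0.16 with no call. Among genes detected on all 6 T cell arrays, 1 of 2 type 17 genes was lower (median -0.31), and 3 of 10 early and type 2 genes were lower and 1 higher (median -0.56). Cd163l1 (Scart1), a scavenger receptor of gamma-delta T cells, had 7.9, 8.22 and 7.86 in stage 3, against 9.49, 9.25 and 8.66 in stage 1-2 (log2 change -1.14 ± 0.37, limma adjusted p = 0.0360); this call was lost without stage 3 replicate 1 (adjusted p = 0.0822), without stage 3 replicate 3 (0.0933), without stage 1-2 replicate 1 (0.114) and without stage 1-2 replicate 2 (0.0920). All 3 gamma-delta markers tested were lower, but 2 of them, Blk and Il17re, are shared with NKT17 cells. Without stage 1-2 replicate 3 the type 17 list had 4 calls in place of 6.

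Genes of proliferating cells fell as a block. Of 21 mitosis genes tested 19 were lower in stage 3 cells and none was higher (median log2 change -1.62), and of 31 DNA replication genes 21 were lower and none was higher (median -1.10), beside 11.0% of all genes lower. Of the mitosis genes 17 were detected on all 6 T cell arrays, and all 17 were among those that fell. The mean log2 intensity of the mitosis list was 5.48, 5.54 and 5.40 in stage 3 cells, against 7.51, 7.36 and 6.62 in stage 1-2 cells, and 7.21 in KO iNKT cells, 6.80 in KO T cells and 6.74 in WT T cells. For the replication list it was 6.32, 6.5 and 6.37 in stage 3 cells, against 7.5, 7.52 and 7.57 in stage 1-2 cells. For both lists the stage 3 arrays lay below the mean of every other group, and stage 1-2 replicate 3 was the lowest of its group for mitosis but not for replication. Without both dim arrays 12 mitosis genes and 20 replication genes were lower, and with the arrays aligned on their medians 3 and 2 were called, with medians of -1.61 and -1.34.

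**Figure D3:**
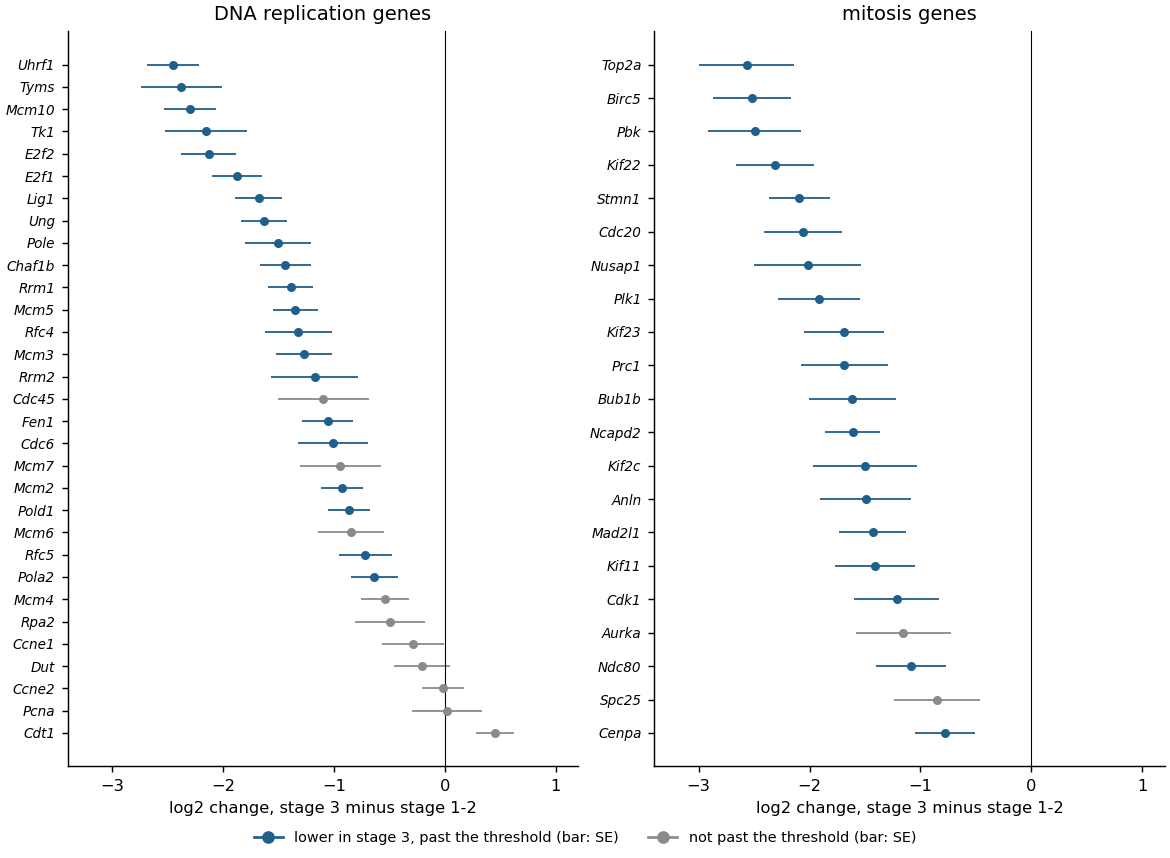
Log2 change (stage 3 minus stage 1-2) of each of the 31 DNA replication genes (left) and 21 mitosis genes (right) tested, with the standard error of the fit as a bar. Blue genes passed the threshold (21 and 19); only Cdt1 (0.45) and Pcna (0.02) lie to the right of zero, and neither passed.

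Among the mitosis genes, Top2a, the topoisomerase that untangles sister chromatids, had 4.75, 5.78 and 5.9 in stage 3, against 8.44, 8.25 and 7.44 in stage 1-2 (log2 change -2.57 ± 0.43, limma adjusted p = 0.000427). Birc5 (survivin), a subunit of the chromosomal passenger complex, had 6.29, 6.4 and 5.89 in stage 3, against 8.88, 9.1 and 8.16 in stage 1-2 (log2 change -2.52 ± 0.35, limma adjusted p = 8.30e-05). Cdc20, the activator of the anaphase-promoting complex, had 6.12, 6.15 and 5.45 in stage 3, against 7.97, 8.46 and 7.47 in stage 1-2 (log2 change -2.06 ± 0.35, limma adjusted p = 0.000521). For each of these the highest stage 3 array lay more than 1 unit below the lowest stage 1-2 array. Plk1, a kinase of mitotic entry, had 4.88, 4.4 and 4.67 in stage 3, against 6.75, 7.18 and 5.77 in stage 1-2, was detected on no stage 3 array and was at least 2.86-fold lower (log2 change -1.92 ± 0.37, limma adjusted p = 0.00140). Cdk1, the mitotic kinase, had 4.67, 5.32 and 4.52 in stage 3, against 5.84, 6.82 and 5.49 in stage 1-2 (log2 change -1.21 ± 0.38, limma adjusted p = 0.0342), a call lost without stage 3 replicate 1 (adjusted p = 0.0867), without stage 3 replicate 3 (0.109) and without stage 1-2 replicate 2 (0.162). Aurka (-1.15) and Spc25, which was detected on no stage 3 array, were not called. No probe was listed for Mki67.

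Among the replication genes, Uhrf1, which keeps DNA methylation through replication, had 7.2, 8.1 and 7.57 in stage 3, against 10.14, 9.9 and 10.19 in stage 1-2 (log2 change -2.45 ± 0.23, limma adjusted p = 2.04e-06). Tyms, the enzyme that makes thymidylate, had 6.23, 7.0 and 6.09 in stage 3, against 8.46, 9.1 and 8.88 in stage 1-2 (log2 change -2.37 ± 0.36, limma adjusted p = 0.000200). Mcm10, which activates the replicative helicase, had 4.78, 4.67 and 4.93 in stage 3, against 6.97, 7.23 and 7.07 in stage 1-2 (log2 change -2.3 ± 0.23, limma adjusted p = 3.55e-06). The stages did not overlap at any of the 3. E2f1 and E2f2, transcription factors that switch on S phase genes, had log2 changes of -1.88 ± 0.23 and -2.13 ± 0.25 (SE). E2f2 had 5.13, 4.63 and 5.58 in stage 3, against 7.05, 7.4 and 7.28 in stage 1-2, and WT T cells averaged 8.4. Pcna, the sliding clamp, had 5.75, 4.51 and 5.31 in stage 3, against 4.98, 5.21 and 5.33 in stage 1-2, was detected on 2 arrays of each group, and did not pass (log2 change 0.02 ± 0.32, limma adjusted p = 0.981). Mcm4, Mcm6 and Mcm7 of the helicase had log2 changes of -0.54, -0.85 and -0.94 without a call, while Mcm2, Mcm3 and Mcm5 were called. Ccnd1 (cyclin D1), which opens the cycle in many tissues, had 5.42, 4.49 and 5.08 in stage 3, against 7.85, 7.57 and 9.01 in stage 1-2 (log2 change -3.15 ± 0.31, limma adjusted p = 2.18e-06). It lay outside the list and was named by a rule made after its values were seen.

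Of the 12 genes with the largest falls among those that all 6 T cell arrays detected, 6 encode histone H2A, which is made when DNA is replicated. H2ac22 had 10.67, 10.62 and 8.52 in stage 3, against 12.72, 12.51 and 12.58 in stage 1-2 (log2 change -2.67 ± 0.53, limma adjusted p = 0.00192). H2ac15 had 10.24, 9.79 and 7.93 in stage 3, against 12.13, 12.03 and 12.21 in stage 1-2 (log2 change -2.8 ± 0.55, limma adjusted p = 0.00165). H2ac7, H2ac11, H2ac12 and H2ac21 had log2 changes of -2.69, -3.08, -2.87 and -2.78. In all of them stage 3 replicate 3 was the lowest array, more than 1 unit below the other stage 3 arrays, and the stage 1-2 arrays lay close together. These genes are nearly identical in sequence, so their probes may share transcripts and they are not 6 separate results.

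Mitosis genes are known to share promoter elements: the CCAAT box, read by NF-Y, and the cell cycle homology region (CHR), read by the DREAM and MYB-MuvB complexes. The 250 bases before the start in the RefSeq promoter table (GRCm38.p6) were searched on both strands for the letters CCAAT and TTTGAA. Promoters were at hand for 17 of the 19 mitosis genes that fell, 18 promoters in all. CCAAT was found in 12 of them (66.7%), against 33.9% of all 32851 promoters of the table. TTTGAA was found in 8 (44.4%), against 15.99% of all promoters and 10.5% of the promoters of the genes tested. Both were found in 7 promoters, against 5.55% of all. In the 25 promoters of the replication genes that fell, CCAAT was found in 10 and TTTGAA in 3. The E2F letters TTTCCCGC or TTTGGCGC were found in 2 of these 25 promoters, against 1.30% of all and 2.27% of the promoters of the genes tested. A match is a string of letters and not a proven site. Not every gene that fell had both elements: Birc5 (log2 change -2.52) had neither, and Plk1 had CCAAT but not TTTGAA. The following 4 promoters were picked because they hold both elements, from among the genes that fell. Capitals mark matches to CCAAT or TTTGAA, or to their complements ATTGG or TTCAAA, and the last base printed is the one before the start.
Cdk1, chr10:69352913-69353162, minus strand: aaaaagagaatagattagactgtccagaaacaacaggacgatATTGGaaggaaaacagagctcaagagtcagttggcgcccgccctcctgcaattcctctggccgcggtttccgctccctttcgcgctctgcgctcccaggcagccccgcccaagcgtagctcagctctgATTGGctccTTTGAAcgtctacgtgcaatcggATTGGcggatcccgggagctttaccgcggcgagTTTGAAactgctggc
Cdc20, chr4:118437344-118437593, minus strand: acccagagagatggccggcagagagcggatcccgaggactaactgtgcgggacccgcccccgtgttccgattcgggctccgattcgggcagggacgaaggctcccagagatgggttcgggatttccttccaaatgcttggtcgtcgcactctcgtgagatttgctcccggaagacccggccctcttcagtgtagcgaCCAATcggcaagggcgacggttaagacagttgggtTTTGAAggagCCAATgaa
Top2a, chr11:99024190-99024439, minus strand: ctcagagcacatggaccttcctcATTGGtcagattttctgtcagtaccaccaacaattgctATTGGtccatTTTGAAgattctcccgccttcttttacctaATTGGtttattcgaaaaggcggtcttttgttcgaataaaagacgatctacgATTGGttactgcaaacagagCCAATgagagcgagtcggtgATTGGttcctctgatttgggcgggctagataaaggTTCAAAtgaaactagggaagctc
Kif11, chr19:37376132-37376381, plus strand: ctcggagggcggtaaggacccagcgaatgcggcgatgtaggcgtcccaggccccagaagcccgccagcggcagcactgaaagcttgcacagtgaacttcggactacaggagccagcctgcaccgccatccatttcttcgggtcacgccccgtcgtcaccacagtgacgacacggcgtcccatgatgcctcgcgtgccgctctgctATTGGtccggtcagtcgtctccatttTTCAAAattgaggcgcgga
In Cdc20, Top2a, Kif11 and Cdk1 a TTTGAA or its complement lies within 30 bases of the start with a CCAAT or ATTGG upstream of it. The Top2a promoter holds 6 CCAAT matches, more than any other printed here. The log2 changes of these genes were -1.21 (Cdk1), -2.06 (Cdc20) and -2.57 (Top2a). Kif11, a spindle motor, was detected on no stage 3 array and was at least 1.78-fold lower.

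Genes that hold cells out of the cycle did not move as one group. Of 16 inhibitors and quiescence genes 5 rose and none fell (median 0.34). Tsc22d3 (GILZ), a glucocorticoid-induced repressor, had 9.38, 9.19 and 9.7 in stage 3, against 7.48, 7.17 and 8.17 in stage 1-2 (log2 change 1.82 ± 0.34, limma adjusted p = 0.00122). Btg1, an anti-proliferative gene, had 12.67, 13.05 and 13.47 in stage 3, against 11.91, 11.71 and 11.61 in stage 1-2 (log2 change 1.32 ± 0.26, limma adjusted p = 0.00169). Tob1, of the same family, had 7.97, 8.14 and 8.36 in stage 3, against 7.02, 6.87 and 5.9 in stage 1-2 (log2 change 1.56 ± 0.36, limma adjusted p = 0.00596). Pdcd4, a brake on translation, rose too (log2 change 1.2 ± 0.28, limma adjusted p = 0.00596). The cyclin-dependent kinase inhibitors did not pass: Cdkn1b (p27) changed by 0.60 ± 0.25, Cdkn2c (p18) by -0.42 ± 0.27 and Cdkn1a (p21) by -0.34. Klf2, which keeps naive T cells quiescent and lets them leave the thymus, had 7.85, 6.65 and 7.1 in stage 3, against 7.19, 7.05 and 6.67 in stage 1-2, with overlap (log2 change 0.23 ± 0.27, limma adjusted p = 0.603), and WT T cells averaged 10.2. Under median alignment the median of the list was 0.01, so its direction rests on the scaling.

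Of 17 regulators of cell death 7 rose and none fell (median 0.50), and 4 were called without stage 1-2 replicate 3 or without both dim arrays. Bcl2, the principal survival factor of resting T cells, had 8.07, 8.21 and 8.27 in stage 3, against 4.48, 5.25 and 5.48 in stage 1-2 (log2 change 3.11 ± 0.28, limma adjusted p = 1.21e-06), and WT T cells averaged 8.4. The pro-apoptotic Bcl2l11 (Bim), which BCL2 holds in check, rose as well with 9.13, 9.13 and 8.81 in stage 3, against 8.01, 6.98 and 7.73 in stage 1-2 (log2 change 1.45 ± 0.24, limma adjusted p = 0.000425). Pim3, a survival kinase, had 10.71, 10.5 and 10.62 in stage 3, against 8.86, 8.79 and 8.82 in stage 1-2 (log2 change 1.79 ± 0.21, limma adjusted p = 1.76e-05). Mcl1 had 9.46, 9.75 and 9.78 in stage 3, against 9.48, 8.88 and 9.17 in stage 1-2 and did not pass (log2 change 0.49 ± 0.21, limma adjusted p = 0.113). The A1 genes Bcl2a1c and Bcl2a1d changed by 1.04 and 1.17, but they are near-identical copies and the call of Bcl2a1c was lost without stage 1-2 replicate 3 (adjusted p = 0.0617), that of Bcl2a1d lost without stage 3 replicate 1 (adjusted p = 0.116), without stage 3 replicate 2 (0.0811), without stage 1-2 replicate 1 (0.113), without stage 1-2 replicate 2 (0.0506) and without stage 1-2 replicate 3 (0.0794).

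The GIMAP genes, GTPases of the immunity-associated family that support lymphocyte survival, rose together. Of the 8 tested 6 were higher and none was lower, with a median log2 change of 1.73 and positive values for all 8. Their mean log2 intensity was 8.16, 8.17 and 8.0 in stage 3 cells, against 6.34, 6.81 and 6.53 in stage 1-2 cells, and 8.5 in KO T cells and 8.30 in WT T cells. Gimap3 had 8.9, 8.52 and 8.66 in stage 3, against 5.05, 6.39 and 5.93 in stage 1-2 (log2 change 2.9 ± 0.30, limma adjusted p = 3.55e-06). Gimap5, whose loss leads to death of peripheral T cells in rodents, had 8.11, 7.76 and 6.87 in stage 3, against 4.67, 5.8 and 5.77 in stage 1-2 (log2 change 2.17 ± 0.35, limma adjusted p = 0.000300). Gimap6 had 10.64, 10.96 and 10.9 in stage 3, against 9.25, 9.26 and 9.03 in stage 1-2 (log2 change 1.65 ± 0.19, limma adjusted p = 1.69e-05). The stages stood apart at each of these. Gimap8 and Gimap9 rose by 1.81 and 1.91, and Gimap4 (0.50 ± 0.22) and Gimap7 (0.53) did not pass. All 8 genes are neighbours on chromosome 6, with no other tested gene between Gimap8 and Gimap3. Leaving out any 1 array kept the count at 6, while none was called with the arrays aligned on their medians, where the list median was 1.34.

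**Figure D4:**
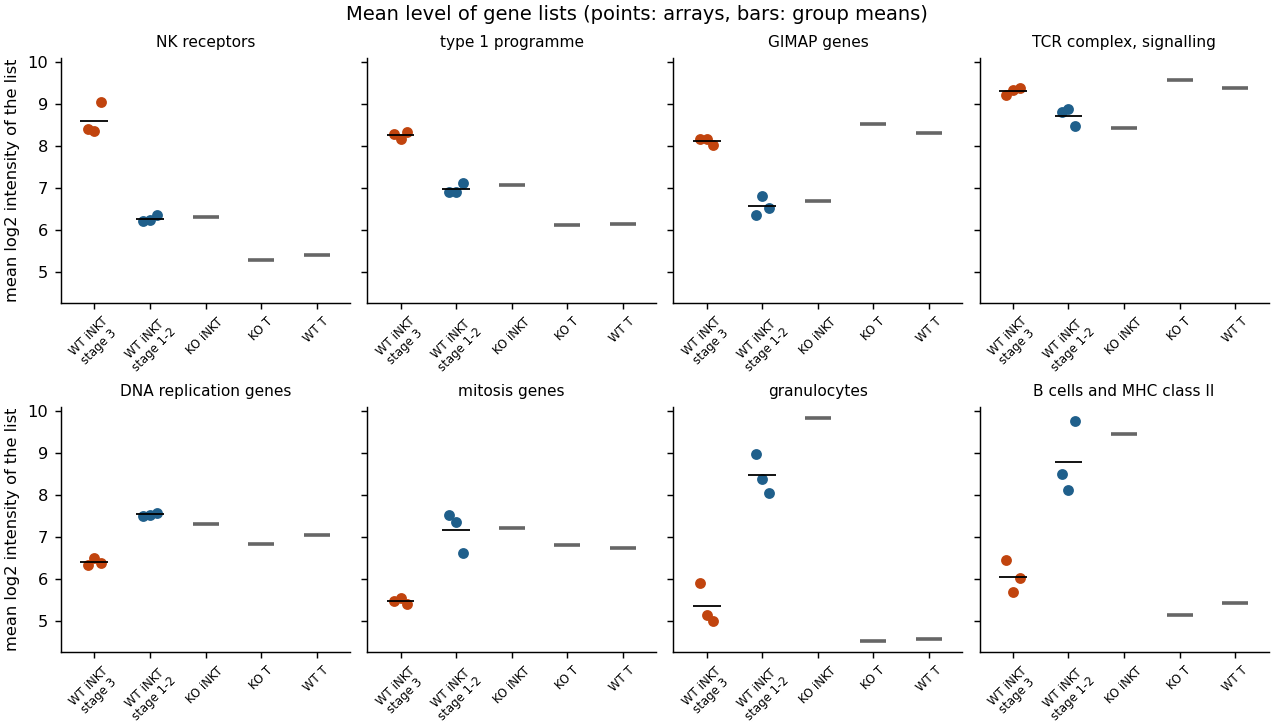
Mean log2 intensity of the tested members of 8 gene lists. Points are single arrays of WT iNKT stage 3 and stage 1-2 cells with their mean as a thin line; thick grey bars are the means of the other groups (3 arrays each). Stage 3 cells lie above stage 1-2 cells for the 4 upper lists and below for the 4 lower ones, and the granulocyte and MHC class II lists are lowest in T cells.

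Of 24 genes of the T cell receptor complex and its proximal signalling 11 rose and none fell, and 23 of the 24 changes were positive (median 0.60). Ptpn22, a phosphatase that restrains the Src kinases below the receptor, had 9.56, 10.18 and 9.84 in stage 3, against 8.67, 8.14 and 7.88 in stage 1-2 (log2 change 1.62 ± 0.25, limma adjusted p = 0.000204). Zap70, the kinase recruited to the receptor, had 11.14, 11.38 and 11.02 in stage 3, against 10.4, 10.45 and 9.86 in stage 1-2 (log2 change 0.94 ± 0.24, limma adjusted p = 0.010), and without stage 1-2 replicate 3 its adjusted p was 0.0547. Tec, a Tec-family kinase, had 6.4, 5.75 and 6.3 in stage 3, against 4.51, 4.94 and 5.57 in stage 1-2 (log2 change 1.15 ± 0.28, limma adjusted p = 0.00752). Cd3e rose by 0.95 ± 0.27 and lost its call without stage 3 replicate 2 (adjusted p = 0.0713) and without stage 1-2 replicate 3 (0.0991). The receptor's zeta chain, Cd247, had 7.64, 8.03 and 7.77 in stage 3, against 7.76, 7.95 and 7.23 in stage 1-2, with overlap (log2 change 0.17 ± 0.29, limma adjusted p = 0.730). These are small changes and the count rests on single arrays: 6 members were called without stage 3 replicate 2, 4 without stage 3 replicate 3, 5 without stage 1-2 replicate 3 and 5 without both dim arrays, and none with median alignment. Stage 1-2 replicate 3 had the lowest mean of the list (8.46, against 8.80 and 8.87 in the other stage 1-2 arrays and 9.21 to 9.36 in stage 3 cells) and the highest mean of the B cell and MHC class II list. The part of other cells in this difference was not tested.

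The SLAM family, homotypic receptors by which iNKT cells are selected, and its adaptors had 1 call among 6 genes tested. Ly9 changed by 0.77 ± 0.27, Cd84 by 0.49 ± 0.22, Slamf1 by 0.40 ± 0.26 and the adaptor Sh2d1a (SAP) by -0.29 ± 0.28 (log2 change ± SE), and none of them passed (limma adjusted p = 0.0556, 0.122, 0.314 and 0.523). A second Ly9 probe rose by 1.47 (limma adjusted p = 0.0110), and Slamf1 was detected on no stage 1-2 array. On the probes that represent the genes, Fyn, the kinase that SAP recruits, was higher (log2 change 0.81 ± 0.23, limma adjusted p = 0.0184), while without stage 1-2 replicate 1 a further member was called. The call of Fyn was lost without stage 3 replicate 3 (adjusted p = 0.0820).

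Immediate early and activation genes were mixed. Of 19 tested 8 rose and 1 fell (median 0.54), with 5 rises without stage 3 replicate 1 and 2 falls without stage 3 replicate 3. Dusp1, a phosphatase that ends MAP kinase signals, had 11.93, 11.65 and 12.33 in stage 3, against 9.63, 9.73 and 9.39 in stage 1-2 (log2 change 2.39 ± 0.27, limma adjusted p = 9.77e-06). Dusp2, a nuclear phosphatase of the same family, had 12.07, 11.73 and 12.22 in stage 3, against 9.86, 9.94 and 10.08 in stage 1-2 (log2 change 2.05 ± 0.22, limma adjusted p = 5.23e-06). Junb, an AP-1 subunit, had 12.33, 12.18 and 12.05 in stage 3, against 9.79, 10.16 and 10.39 in stage 1-2 (log2 change 2.07 ± 0.22, limma adjusted p = 6.81e-06). At all 3 the groups were more than 1 unit apart. Rgs1, which dampens chemokine receptor signalling and marks tissue-resident T cells, had 10.38, 10.17 and 10.28 in stage 3, against 8.19, 8.0 and 9.01 in stage 1-2 (log2 change 1.87 ± 0.34, limma adjusted p = 0.000892). Nr4a3, a target of receptor signalling, had 6.48, 6.51 and 6.01 in stage 3, against 4.55, 5.08 and 4.96 in stage 1-2 (log2 change 1.48 ± 0.21, limma adjusted p = 0.000120). Fos had 8.23, 7.74 and 8.89 in stage 3, against 8.41, 8.11 and 8.79 in stage 1-2 and Jun 5.83, 6.12 and 5.39 in stage 3, against 6.29, 5.56 and 6.52 in stage 1-2, with overlap and no call (limma adjusted p = 0.792 and 0.393). Ier3 was the member that fell (log2 change -2.05 ± 0.29, limma adjusted p = 8.28e-05); it had 6.06, 5.87 and 5.38 in stage 3, against 7.88, 7.22 and 8.36 in stage 1-2 and averaged 5.09 in WT T cells.

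Of 19 lineage regulators 7 rose (36.8%, beside 9.11% of all genes) and 2 fell (10.5%, beside 11.0%). Their median was 0.18, which became -0.05 under median alignment. Beside Tbx21, Bhlhe40, which NKT1 cells need for full cytokine production in mice, had 9.68, 9.73 and 9.99 in stage 3, against 7.76, 7.27 and 8.25 in stage 1-2 (log2 change 2.04 ± 0.27, limma adjusted p = 5.71e-05). Ets1, a factor needed for NK and NKT cells, had 12.31, 12.43 and 13.16 in stage 3, against 11.57, 11.33 and 11.29 in stage 1-2 (log2 change 1.23 ± 0.28, limma adjusted p = 0.00531). Nfil3, which acts early in NK cell development, had 8.79, 9.25 and 9.31 in stage 3, against 7.88, 7.73 and 8.06 in stage 1-2 (log2 change 1.22 ± 0.25, limma adjusted p = 0.00208). Each was higher on every stage 3 array. Id2, the E protein inhibitor of NK-like cells, changed by 0.77 ± 0.24, a call lost without stage 3 replicate 1 (adjusted p = 0.109), without stage 3 replicate 2 (0.0755) and without stage 1-2 replicate 3 (0.162). Id3 was detected on no stage 3 array and on 2 stage 1-2 arrays and did not pass (log2 change -0.23 ± 0.22, limma adjusted p = 0.518). Zeb2, which T-bet induces in NK cells and which myeloid and dendritic cells express strongly, fell with 5.26, 4.36 and 5.19 in stage 3, against 6.89, 5.82 and 7.46 in stage 1-2 (log2 change -1.79 ± 0.34, limma adjusted p = 0.00126), and it was detected on no WT T array. Runx1 was lower too, with 5.05, 4.71 and 5.33 in stage 3, against 6.26, 5.72 and 6.62 in stage 1-2 (log2 change -1.17 ± 0.26, limma adjusted p = 0.00463), a call lost without both dim arrays. The list had 4 rises without stage 3 replicate 2 or without both dim arrays.

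Of 14 costimulatory and inhibitory receptors 6 rose (42.9%, beside 9.11% of all genes) and 2 fell (14.3%, beside 11.0%). Tnfrsf18 (GITR) had 10.48, 10.2 and 10.12 in stage 3, against 8.02, 8.63 and 8.27 in stage 1-2 (log2 change 1.96 ± 0.24, limma adjusted p = 2.67e-05). Cd226 (DNAM-1), which triggers killing on nectin ligands, had 7.38, 8.2 and 8.22 in stage 3, against 4.6, 6.83 and 6.23 in stage 1-2 (log2 change 2.05 ± 0.46, limma adjusted p = 0.00417), a call lost without both dim arrays, and stage 1-2 replicate 1 was the lowest of its group. Tnfsf14 (LIGHT) had 6.44, 6.96 and 6.24 in stage 3, against 4.95, 5.5 and 5.47 in stage 1-2 (log2 change 1.24 ± 0.24, limma adjusted p = 0.00175). Ctla4, the inhibitory receptor for B7, had 7.58, 7.2 and 7.36 in stage 3, against 8.21, 8.28 and 8.37 in stage 1-2 (log2 change -0.91 ± 0.20, limma adjusted p = 0.00452) and was lower on every stage 3 array. The other call for a fall, Lag3, was lost in every fit that left out 1 array except that without stage 1-2 replicate 1. Of 13 chemokine receptors and adhesion molecules 6 rose (46.2%) and 2 fell (15.4%). Cd44 of the gate was counted among the 6 on 1 of its 3 kept probes. Ccr8, a receptor of skin-homing and regulatory T cells, had 7.86, 7.73 and 7.83 in stage 3, against 4.5, 6.18 and 4.94 in stage 1-2 (log2 change 2.6 ± 0.34, limma adjusted p = 4.82e-05). Itgae (CD103), which binds E-cadherin on epithelium, had 10.71, 10.95 and 10.96 in stage 3, against 9.86, 10.00 and 9.81 in stage 1-2 (log2 change 0.98 ± 0.22, limma adjusted p = 0.00529). Selplg, the selectin ligand, had 10.82, 10.71 and 11.02 in stage 3, against 9.98, 9.46 and 10.14 in stage 1-2 (log2 change 0.99 ± 0.20, limma adjusted p = 0.00188). Ccr7, which guides cells to the medulla and to lymph nodes, went the other way with 5.13, 4.36 and 4.78 in stage 3, against 7.42, 6.83 and 6.47 in stage 1-2 (log2 change -2.15 ± 0.31, limma adjusted p = 0.000123), and WT T cells averaged 8.63.

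Of 14 naive T cell and thymic exit genes tested, 3 rose (21.4%, beside 9.11% of all genes) and 4 fell (28.6%, beside 11.0%). The other 7 were not called, and the median of the list was 0.09. Igfbp4, a secreted binding protein of insulin-like growth factors that is high in naive T cells, had 5.68, 5.18 and 5.42 in stage 3, against 9.86, 9.88 and 9.51 in stage 1-2 (log2 change -4.32 ± 0.21, limma adjusted p = 4.38e-10) and 11.3 on average in WT T cells. Cd8b1 had 7.34, 7.38 and 6.11 in stage 3, against 9.18, 8.87 and 9.72 in stage 1-2 (log2 change -2.31 ± 0.31, limma adjusted p = 5.99e-05) and 12.58 in WT T cells, and Dntt, the nucleotide transferase of CD4+CD8+ thymocytes, had 4.92, 4.38 and 4.52 in stage 3, against 6.89, 5.32 and 7.74 in stage 1-2, was detected on no stage 3 array and was at least 3.03-fold lower (log2 change -2.04 ± 0.40, limma adjusted p = 0.00177). Of the 9 CD4+CD8+ thymocyte genes tested, these 2 were called lower (22.2%, beside 11.0% of all genes) and 7 were not called. Their median was -0.28, and the change was positive for 1 of them. This was Rag1, which had 5.29, 5.77 and 4.57 in stage 3, against 4.35, 4.91 and 4.55 in stage 1-2, with overlap. Arpp21 was detected on no stage 3 array and changed by -1.0 without a call (limma adjusted p = 0.109). The list mean was 5.73, 5.79 and 5.58 in stage 3 cells, against 6.31, 6.16 and 6.77 in stage 1-2 cells. Il7r, the receptor for interleukin 7, rose with 10.05, 10.89 and 10.58 in stage 3, against 9.78, 9.51 and 8.87 in stage 1-2 (log2 change 1.12 ± 0.26, limma adjusted p = 0.00648).

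Cytoskeletal, S100 and galectin genes, which are high in memory T cells, moved in both directions, with 4 rises and 3 falls among 20 and a median of -0.28. Ahnak, a giant scaffold protein, had 10.93, 10.58 and 10.37 in stage 3, against 8.73, 8.58 and 9.46 in stage 1-2 (log2 change 1.71 ± 0.34, limma adjusted p = 0.00169). Myo1f, a myosin of leukocytes, had 9.61, 9.93 and 10.13 in stage 3, against 8.53, 7.99 and 8.52 in stage 1-2 (log2 change 1.54 ± 0.30, limma adjusted p = 0.00163). Lgals3 (galectin 3), also a macrophage gene, had 11.13, 11.32 and 11.29 in stage 3, against 12.22, 12.47 and 12.11 in stage 1-2 (log2 change -1.02 ± 0.26, limma adjusted p = 0.0102). The first 2 were higher and the third lower on every stage 3 array, and 1 fall was called without stage 3 replicate 3 or without stage 1-2 replicate 3. S100a4 and S100a6 changed by -0.82 ± 0.29 and -0.42 ± 0.27, with overlap.

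TGF-beta is needed for iNKT development. Of 13 receptors, SMADs and regulators 3 rose (23.1%, beside 9.11% of all genes) and none fell. The median was 0.36, or 0.05 with median alignment. Skil (SnoN), a SMAD co-repressor, had 9.44, 9.39 and 9.26 in stage 3, against 8.65, 8.53 and 8.11 in stage 1-2 (log2 change 0.93 ± 0.24, limma adjusted p = 0.0108), and without stage 1-2 replicate 3 its adjusted p was 0.0549. Tgfbr2 and Smad3 changed by 0.86 ± 0.26 and 0.80 ± 0.27, with calls lost without stage 3 replicate 3 (adjusted p = 0.126), without stage 1-2 replicate 1 (0.0802) and without stage 1-2 replicate 3 (0.0629) for Tgfbr2 and lost without stage 3 replicate 1 (adjusted p = 0.0519), without stage 3 replicate 2 (0.102), without stage 3 replicate 3 (0.104), without stage 1-2 replicate 2 (0.0806) and without stage 1-2 replicate 3 (0.154) for Smad3, and without stage 1-2 replicate 3 none of the 3 was called. Of 31 interferon-stimulated genes 6 fell (19.4%, beside 11.0% of all genes) and 2 rose (6.45%, beside 9.11%). The median was -0.0015. Ifitm3 and Ifitm2, antiviral membrane proteins also abundant in myeloid cells, had the largest falls: Ifitm3 had 7.13, 4.94 and 5.75 in stage 3, against 9.0, 8.15 and 9.69 in stage 1-2 (log2 change -3.01 ± 0.55, limma adjusted p = 0.000991). Bst2, a marker of plasmacytoid dendritic cells, was lower as well (log2 change -1.48 ± 0.42, limma adjusted p = 0.0199), a call lost without stage 3 replicate 2 (adjusted p = 0.0895), without stage 1-2 replicate 2 (0.0686) and without stage 1-2 replicate 3 (0.0533). Isg15, Irf7 and Gbp2 changed by -0.32, 0.30 and 0.31 with no call, and Ifit3 rose with 8.62, 8.58 and 8.96 in stage 3, against 7.36, 7.83 and 7.23 in stage 1-2 (log2 change 1.25 ± 0.27, limma adjusted p = 0.00378). Of the 2 rises 1 was called without stage 3 replicate 3 or without stage 1-2 replicate 3. The calls for falls numbered 3 without stage 3 replicate 2, without stage 1-2 replicate 2 or without stage 1-2 replicate 3, 4 without stage 1-2 replicate 1, and 2 without both dim arrays.

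Subunits of oxidative phosphorylation leaned lower, with positive values for 1 of 52 and a median of -0.55, but only 7 passed, 13.5% beside 11.0% of all genes. The list mean was 9.38, 9.09 and 8.54 in stage 3 cells, against 9.32, 9.64 and 9.71 in stage 1-2 cells, so the groups overlapped and stage 3 replicate 3 was the lowest. The count was 13 without stage 3 replicate 1, 4 without stage 3 replicate 2, and 1 without stage 3 replicate 3, stage 1-2 replicate 2 or stage 1-2 replicate 3. Ndufs8, a complex I subunit, was the member with the smallest adjusted p (log2 change -0.82 ± 0.21, limma adjusted p = 0.0102). In glycolysis 1 of 15 genes rose (6.67%) and 2 fell (13.3%), near the shares of 9.11% and 11.0% over all genes. The gene that rose was the glucose transporter Slc2a1 (log2 change 0.93 ± 0.20, limma adjusted p = 0.00286) with 7.94, 7.55 and 8.07 in stage 3, against 6.93, 6.91 and 6.93 in stage 1-2. The phosphofructokinases Pfkl and Pfkm were the 2 called lower, at -0.59 and -0.79, but the call of Pfkl was lost without stage 3 replicate 2 (adjusted p = 0.101), without stage 3 replicate 3 (0.146), without stage 1-2 replicate 1 (0.182) and without stage 1-2 replicate 3 (0.0640) and that of Pfkm lost without stage 3 replicate 3 (adjusted p = 0.0659) and without stage 1-2 replicate 3 (0.0714). Without stage 3 replicate 1 a second glycolysis gene was called higher, and without both dim arrays none was called lower. With the intensities normalized by the authors 6 were called lower and 2 higher. Hk2 changed by -0.91 ± 0.31 and Ldha by -0.43 ± 0.20, with no call, but Hk2 was called lower under 7 of 21 alternatives. Of 27 ribosomal protein genes 1 was called (Rplp0, -0.85, lost without stage 3 replicate 2 (adjusted p = 0.0603)) and the median was -0.02. Of 25 genes of translation, ribosome biogenesis and protein folding 2 were lower (8.0%, beside 11.0% of all genes), with a median of -0.30. The count was 1 without both dim arrays or without any 1 array other than stage 3 replicate 3. Eef1e1, a cofactor of the tRNA synthetase complex, had 6.34, 6.1 and 6.14 in stage 3, against 7.46, 7.52 and 7.18 in stage 1-2 (log2 change -1.2 ± 0.25, limma adjusted p = 0.00282).

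**Figure D5:**
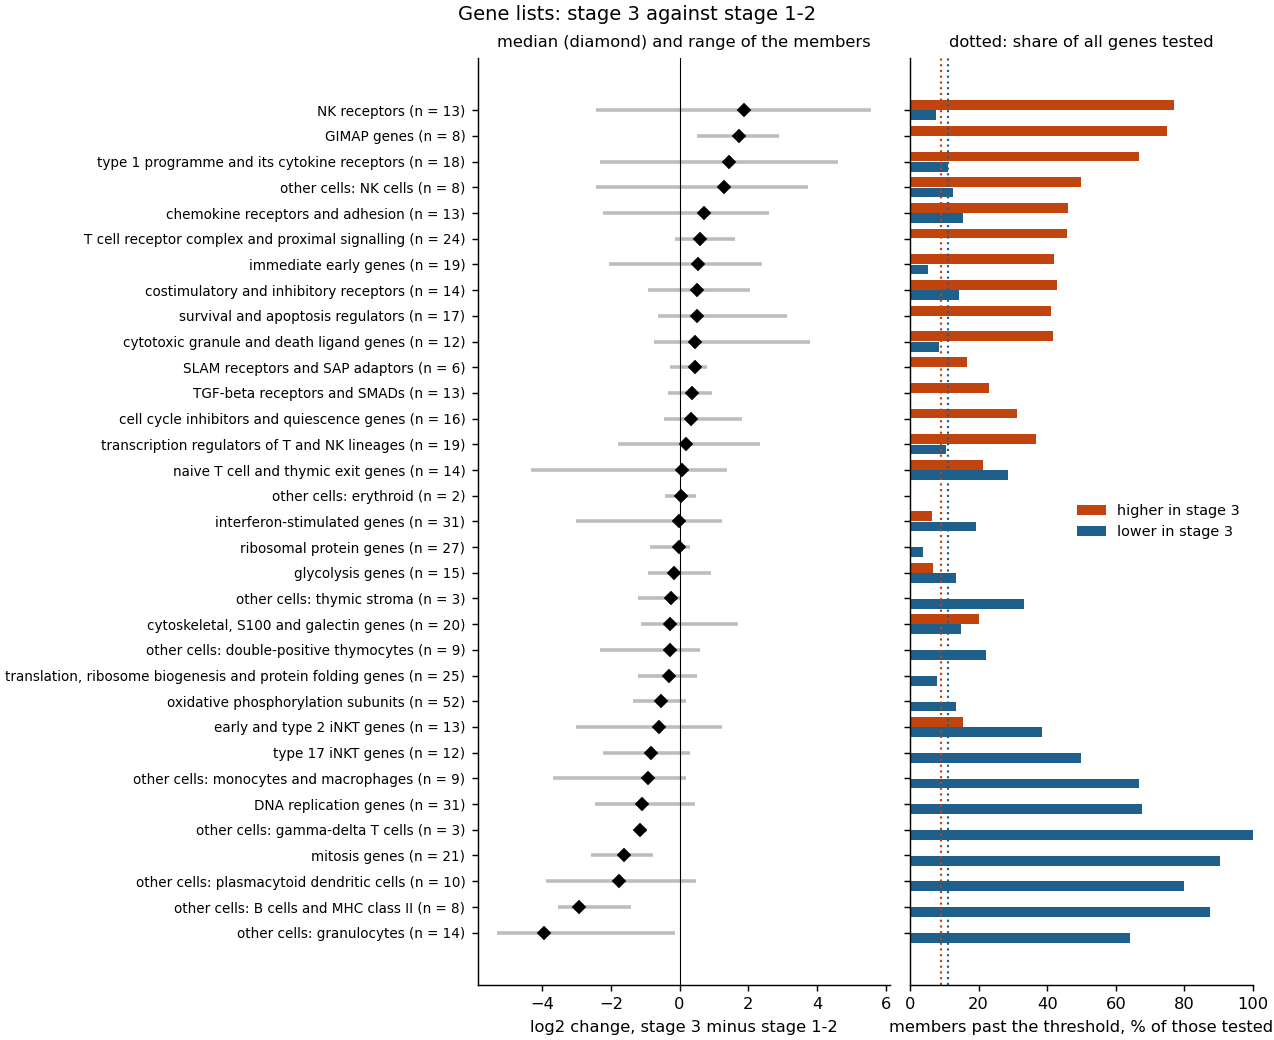
For each gene list (rows, with the number of genes tested), the left panel shows the median log2 change (diamond) and the range of its members, and the right panel the percentage of members that were higher or lower in stage 3 cells at an adjusted p under 0.05. Dotted lines mark the shares over all genes, 9.11% higher and 11.0% lower; NK receptors, GIMAP genes and the type 1 programme are at the top, and markers of granulocytes, MHC class II and mitosis at the bottom.

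Of 14 granulocyte genes 9 fell, with a median of -3.95, and none of the 14 was detected on all 6 T cell arrays. S100a8, a calcium-binding protein that fills the cytosol of neutrophils, had 9.99, 7.96 and 6.45 in stage 3, against 13.56, 13.28 and 12.81 in stage 1-2 (log2 change -5.09 ± 0.62, limma adjusted p = 2.34e-05). Ltf (lactoferrin), of the secondary granules, had 7.41, 4.68 and 6.64 in stage 3, against 12.33, 11.67 and 10.63 in stage 1-2 (log2 change -5.3 ± 0.70, limma adjusted p = 4.58e-05). Mpo, of the primary granules, had on its brightest probe 4.59, 4.48 and 4.57 in stage 3, against 8.64, 7.31 and 9.17 in stage 1-2, was detected on no stage 3 array and was at least 10.0-fold lower (log2 change -3.83 ± 0.44, limma adjusted p = 1.15e-05). Further probes fell less: by -1.18 for Ltf (limma adjusted p = 0.155) and by -1.05 and -1.21 for Mpo (limma adjusted p = 0.0592 and 0.0261). Elane was not called. Within stage 3 the first array was the highest for S100a8, S100a9, Ltf and Camp, so granulocyte transcripts differed between replicates as well. Their means in KO iNKT cells were above those in stage 1-2 cells, 14.04 for S100a8 and 12.92 for Ltf. Of 9 monocyte and macrophage genes 6 fell (4 without stage 3 replicate 2, without stage 1-2 replicate 1 or without both). Lyz2, a lysozyme of macrophages and granulocytes, had 6.29, 5.82 and 6.45 in stage 3, against 9.9, 9.48 and 9.25 in stage 1-2 (log2 change -3.36 ± 0.36, limma adjusted p = 5.74e-06). No probe was listed for Csf1r, Cd68 or Mpeg1.

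Of 10 plasmacytoid dendritic cell genes 8 fell, and 5 fell without stage 3 replicate 2 or without stage 1-2 replicate 3. Tcf4, the factor that defines these cells, had 5.39, 4.68 and 6.25 in stage 3, against 8.98, 8.2 and 9.45 in stage 1-2 (log2 change -3.44 ± 0.36, limma adjusted p = 4.93e-06). Siglech, their surface lectin, had 5.62, 4.95 and 4.89 in stage 3, against 6.57, 6.73 and 8.32 in stage 1-2 (log2 change -2.05 ± 0.36, limma adjusted p = 0.000736). Of 8 B cell and MHC class II genes 7 fell: Cd74, the invariant chain, had 7.38, 6.83 and 6.98 in stage 3, against 10.23, 9.43 and 11.11 in stage 1-2 (log2 change -3.19 ± 0.38, limma adjusted p = 1.69e-05). H2-Ab1, a class II beta chain, had 7.7, 6.61 and 7.24 in stage 3, against 10.94, 9.82 and 11.41 in stage 1-2 (log2 change -3.54 ± 0.41, limma adjusted p = 1.32e-05). Stage 1-2 replicate 3 was the highest array for Cd74, H2-Ab1, Tcf4 and Siglech, while stage 1-2 replicate 1 was the highest for S100a8 and Ltf. The B cell gene Cd79a was detected on 1 stage 1-2 array and no stage 3 array. Cd79b, also detected on no stage 3 array, was at least 5.13-fold lower (log2 change -2.66 ± 0.44, limma adjusted p = 0.000363). Erythroid and stromal markers showed little: neither of 2 erythroid genes passed, and of 3 stromal genes Pecam1, which lymphocytes also express, fell.

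Among the genes that fell, those detected on all 6 T cell arrays are set apart here; the rule that picked them was made after the values were seen. The 12 largest were Igfbp4, Aldh2, Plac8, Ccnd1, the histone genes above, Tiam1 and Snn. Aldh2, the mitochondrial aldehyde dehydrogenase, had 5.66, 4.57 and 5.86 in stage 3, against 9.79, 8.91 and 10.42 in stage 1-2 (log2 change -4.34 ± 0.38, limma adjusted p = 8.26e-07) and averaged 7.83 in WT T cells. Tiam1, an exchange factor for Rac, had 4.79, 4.49 and 5.06 in stage 3, against 7.57, 8.22 and 8.0 in stage 1-2 (log2 change -3.16 ± 0.24, limma adjusted p = 1.63e-07) with 6.61 in WT T cells. Snn (stannin), a small membrane protein, had 5.21, 4.75 and 4.82 in stage 3, against 7.72, 7.2 and 8.58 in stage 1-2 (log2 change -2.91 ± 0.28, limma adjusted p = 2.04e-06). In stage 3 cells Aldh2 was detected on 2 arrays and Tiam1 and Snn on 1 each. Alox5ap, which feeds arachidonic acid to 5-lipoxygenase and is among the 12 largest falls of all, had 5.36, 4.4 and 4.65 in stage 3, against 9.47, 9.1 and 10.38 in stage 1-2 (log2 change -4.85 ± 0.32, limma adjusted p = 1.87e-08) and was detected on no WT T array.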

How the data were processed

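RNA of 15 sorted thymic samples was amplified, biotinylated and read on Illumina bead arrays of 1 colour, per the labels' protocols. The main table is called non-normalized per the file headers; in it the authors deposited linear intensity (mean bead signal per probe) and a detection p-value. GenomeStudio is named in the submitters' processing notes, without a version. A second deposited table holds intensity values normalized by the authors with a method not given in the sources used here, and it served as an alternative. How many animals went into an array is not given either.

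From the non-normalized table, intensities were background-corrected and quantile-normalized with neqc (offset 16) of limma 3.58.1 in R 4.3.3. Probes entered the tests if every array of 1 or more of the 5 groups detected them (p under 0.05; 3 arrays a group). Each gene was represented by the brightest such probe on average (log2 scale). Of 25697 probes 23978 had 1 gene symbol (16593 symbols) in the platform annotation, 1719 had several or none, and 9446 probes were kept, of which 8906 named 6838 genes. A single limma fit with a mean per group over all 15 arrays (10 residual degrees of freedom) gave the contrast stage 3 minus stage 1-2, two-sided, with Benjamini-Hochberg adjustment over all 6838 genes. A gene detected on no array of 1 group has only a bound there, so its fold is given as at least the ratio of the mean level in the other group to the lowest level detected on the arrays without it, or to the gene's own value there where that is higher. The number of arrays limits the precision. On simulated data with 50 changed genes at each fold, the fit called 6% at 1.5-fold, 68% at 2-fold and 96% at 3-fold. In that simulation 6638 of the 6838 genes were unchanged, whereas 1377 genes were called in the real data. The adjustment depends on the share of changed genes, so these rates do not measure what the real fit could call. A gene without a call may still differ by a small fold.

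The text names the 12 largest rises and 12 largest falls past the threshold with separated arrays and readable symbols, the key genes of each list, and up to 5 further members of each list with the smallest adjusted p; neighbours on chromosome 6, members cited in counts, and the 12 largest falls among genes detected on all 6 T cell arrays were added after the values were seen. The comparison and the gene lists were chosen with earlier results of these data known. Replicate numbers are shared by the groups, but the deviations of same-numbered arrays correlated at -0.23, -0.03 and -0.05, so they were not treated as pairs. Alternatives changed the background correction, scaling, table, detection filter, probe per gene, threshold, variance model, block, weights and arrays; those that left out both dim arrays or restricted the genes to those on T cell arrays were chosen after seeing the data. Promoters are those of RefSeq (GRCm38.p6). Scripts used Python 3.11.15, numpy 2.4.6, pandas 2.3.3 and matplotlib 3.10.9.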

Additional observations from a re-analysis of the deposited data

How the results depend on the processing

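The counts of 623 rises and 754 falls stayed within 1.5 times under most alternatives. Exceptions were median scaling (15 rises and 75 falls), median scaling without both dim arrays (84 and 501) and the fold threshold of 2 (283 and 464, fewer by construction). A fit on the 2 compared groups alone was the other exception (333 and 471). It has fewer residual degrees of freedom and also leaves the spread within the other groups out of its estimate. For the scaling and for this fit the cause was not tested. Leaving out 1 array gave 451 to 557 rises and 532 to 700 falls. With the replicate block there were 588 rises and 720 falls, and the block is not a pairing of samples here. Of the 181 named genes past the threshold 137 stayed past it in every fit that left out 1 array and 46 under every setting run. Of the values of named genes under all alternatives, 514 lost the call, 77 gained it and 1 changed sign: Pfkm, at 0.32 with its probe of lowest intensity (limma adjusted p = 0.436). Of 464 further kept probes of changed genes 442 had the same sign, 220 passed with it and none passed in the opposite direction. Of named genes without a call, Ly9 (1.47), Nrp1 (-1.0), Prf1 (1.58), Tgif1 (1.10) and Tpi1 (-0.68) each had a further probe that passed. No block for the slide was run because the files used here give none. Genes whose signal sits at background in 1 group have folds limited by that background, and 3 arrays a group limit what small changes can be called.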
